A study of Mus musculus with 4 samples.

Results

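The 9 genes Egr1, Egr2, Egr3, Nr4a1, Nr4a2, Nr4a3, Ier2, Ier3 and Ier5 encode immediate early factors, and were taken by name out of 55335 genes in the deposited tables. All 9 had fragments in at least 1 library, 7 of them in every library. The 4 RNA libraries came from back skin of mice aged 8 to 12 weeks that had received imiquimod cream (5%) on 5 days, in a daily amount of 15 or 62.5 mg that the labels do not assign to single mice. The 2 control libraries are from Mettl3fl/fl mice, in which the gene for the catalytic subunit of the N6-methyladenosine (m6A) writer is flanked by loxP sites. The 2 knockout libraries are from Mettl3fl/fl;Cd4-Cre mice, which also carry Cre recombinase under the Cd4 promoter, active in developing T cells. All 4 cell preparations shared the floxed alleles, the imiquimod and the digestion of skin at 37 °C, 60 min in dispase and 2 h in collagenase. No library from untreated skin or from cells kept cold was analysed here, so the response to imiquimod and that to digestion cannot be told apart in these levels. The sources used here do not say how many mice gave each library, so p-values measure only the spread between these libraries, which may be technical.

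Immediate early genes are transcribed within minutes of a stimulus, without new protein being made, and their messages are short-lived. EGR proteins are zinc finger transcription factors induced through MAP kinases and serum response factor. NR4A proteins are orphan nuclear receptors that bind DNA without a known natural ligand being required. In T cells both families report signalling by the antigen receptor, and Egr2, Egr3 and the NR4A genes are known for limiting activation. Macrophages, fibroblasts and keratinocytes induce them as well. Ier2 encodes a small nuclear protein, Ier5 a regulator of heat shock factor, and Ier3 a stress-induced protein that affects survival.

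Promoter sequences are shown because immediate early genes are known to be switched on through elements near their start sites, and because the Egr2 start site below is that of the exon with nearly all its fragments. Egr1 was not looked up in the RefSeq table (GRCm38.p6). Of the other genes, 6 had an entry (Egr2, Nr4a1, Nr4a2, Nr4a3, Ier3 and Ier5), and Egr3 and Ier2 had none. The letters searched on both strands of the 250 bases before each start were the CArG box (the binding letters of serum response factor), TGACGT (the core of the cAMP response element), GGAAGT (an ETS core) and TATAAA, and capitals mark each match.
Egr2, chr10:67537619-67537868, plus strand: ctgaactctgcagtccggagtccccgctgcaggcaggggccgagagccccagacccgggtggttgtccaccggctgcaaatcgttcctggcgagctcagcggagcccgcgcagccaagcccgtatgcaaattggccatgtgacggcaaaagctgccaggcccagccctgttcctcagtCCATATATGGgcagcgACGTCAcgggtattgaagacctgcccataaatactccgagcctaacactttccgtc
Nr4a3, chr4:48045055-48045152, plus strand: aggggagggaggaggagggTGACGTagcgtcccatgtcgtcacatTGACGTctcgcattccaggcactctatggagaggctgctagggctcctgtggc
Ier3, chr17:35821463-35821683, plus strand: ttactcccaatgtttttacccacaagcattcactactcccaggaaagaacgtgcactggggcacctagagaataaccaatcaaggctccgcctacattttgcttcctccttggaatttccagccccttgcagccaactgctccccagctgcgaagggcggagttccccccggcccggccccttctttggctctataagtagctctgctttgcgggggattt
The Nr4a3 and Ier3 lines stop where the annotated exon begins. Egr2 had several start sites. The one printed had a CArG box at -72 to -63 and TGACGT, on the opposite strand, at -56 to -51 from the start. The windows of the starts at 67537870 and 67537930 overlap it and hold the same 2 matches. That of the start at 67537566 had another CArG box and no TGACGT, and that at 67535499 had no match. Nr4a3 had TGACGT at -231, -205 and -147, the last beyond the printed part. Of 32851 windows of this length, 1.47% held a CArG box, 6.47% TGACGT, 19.7% GGAAGT and 12.4% TATAAA. Nr4a2 had TATAAA at -164, and no match was found for Ier3, Ier5 or Nr4a1. A match is a description of the letters, not a measured site.

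How much of each gene could be counted decides what its values mean. The authors' tables count a fragment only if it overlaps a single exon entry of the annotation. Ier2 (chromosome 8, 84661331 to 84662854, minus strand, GRCm38), Ier3 (chromosome 17, 35821684 to 35822923) and Ier5 (chromosome 1, 155096361 to 155099636, minus strand) have 1, 2 and 1 exon entries, and 100% of their exonic and coding bases lie in a single entry. For Egr1 (chromosome 18, 34859823 to 34864984) this share was 32.3% of exonic and 0% of coding bases. It was 12.1% and 2.92% for Egr2 (chromosome 10, 67535475 to 67542188), and 10.6% and 3.33% for Egr3 (chromosome 14, 70077203 to 70082614). For Nr4a1 (chromosome 15, 101254269 to 101274795), Nr4a2 (chromosome 2, 57106830 to 57124003, minus strand) and Nr4a3 (chromosome 4, 48045153 to 48086447) it was 29.4%, 7.79% and 4.56% of exonic bases, and 0% of coding bases. The counts of the 6 EGR and NR4A genes therefore come from untranslated, intronic or alternative exons rather than from the body of the message.

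**Figure D1:**
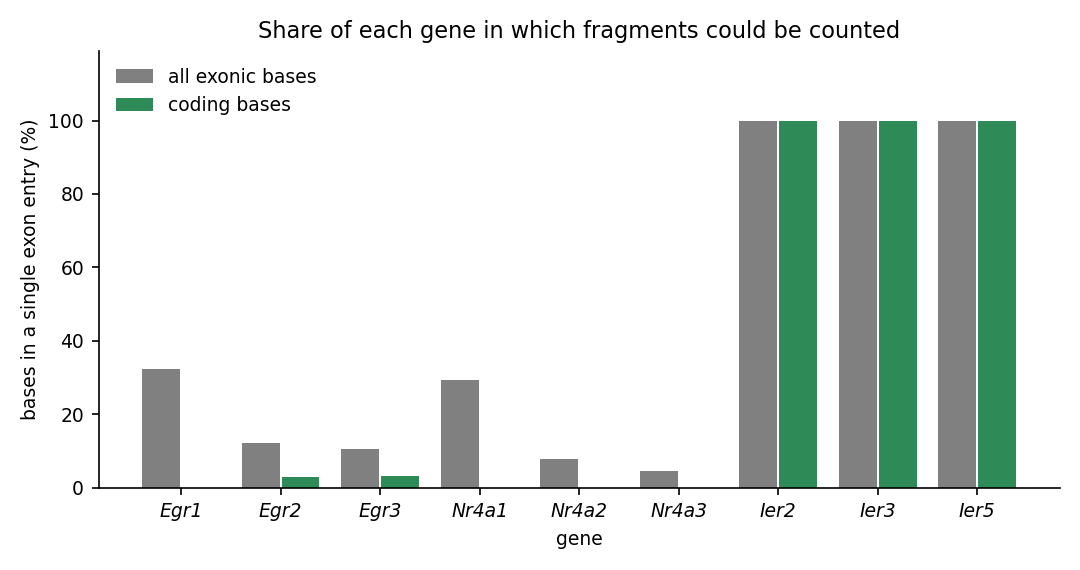
Percent of the exonic bases (grey) and coding bases (green) of each gene that lie in a single exon entry of the annotation, where fragments could be counted. The 3 IER genes stand at 100% and the 6 EGR and NR4A genes at 32.3% or less of exonic and 3.33% or less of coding bases.

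Libraries had 3614418 to 4537006 counted fragments, and levels are given as CPM scaled with TMM factors. Detected genes, those with any fragment, numbered 20100 (knockout 1), 19378 (control 1), 16273 (knockout 2) and 11424 (control 2). Control 2 thus had the fewest detected genes, and also the fewest fragments. The part of this in its zeros, its low levels and the fold changes was not tested. The label names the cells CD4+ T cells, and the markers go against a pure population. Values are given below for controls 1 and 2 and then for knockouts 1 and 2. The targeted gene Mettl3 had 195 and 49 fragments in controls and 121 and 158 in knockouts, which overlap, and 89.9% of them lay in retained-intron entries. Which exons are floxed is not stated in the labels, so these counts do not check the genotypes, and control and knockout are the labels' terms throughout. The 10 T cell markers summed to 996.5 and 314.1 CPM in controls and to 285.8 and 146.3 CPM in knockouts, with Cd4 and Lck at 0 fragments in control 2 and Lck in knockout 2. The 12 macrophage and monocyte markers summed to 17825 and 8776 CPM in controls and 27851 and 25783 CPM in knockouts, with Itgam at 0 in control 2 and knockout 2. Keratinocyte markers summed to 20050 CPM in control 2 and to 803.8 to 1899 in the other libraries. In such bulk libraries, fewer cells of a type and less RNA per cell cannot be told apart, and which cells supplied a transcript was not tested. Zeros and sums also depend on how much of each marker could be counted. Itgam had 356 bases in a single entry, against 2553 for Cd4, and 88.5% of Lck fragments lay in retained-intron entries.

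Ier3 had the highest counted level of the 9 genes in every library. The controls had 3051 and 2939 CPM (13978 and 11135 fragments) and the knockouts 5168 and 4588 CPM (20705 and 19406 fragments). Both knockouts lay above both controls, and the lower knockout was 1.50 times the higher control. By raw fragments it ranked 16 and 25 among all genes in controls, and 12 and 16 in knockouts. These ranks also depend on how much of each gene lay in a single exon entry, which was 100% for Ier3. The mean was 4878 ± 410.3 CPM in knockouts against 2995 ± 79.2 CPM in controls (SD over 2 libraries per genotype), a ratio of 1.63. The difference did not pass the test, with a log2 fold change of 0.70, a standard error of 0.45 and an adjusted p of 0.9997 (edgeR quasi-likelihood test). With any library left out the log2 fold change lay between 0.66 and 0.86. Without control 1 it was 0.80, below the median of 1.72 over all genes tested in that setting.

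Of the macrophage markers 0 passed the threshold, and the log2 fold changes had the same sign as that of Ier3 in 11 of 11 tested members (56.9% of all genes), with a median of 1.12 beside 0.20 over all genes tested. Both knockouts lay above both controls for 8 of the 11 (19.5% of all genes). The median was 0.63 without control 2 (0.05 over all genes) and 2.40 without control 1 (1.72 over all genes). The 8 neutrophil markers summed to 404 and 269 CPM in controls and 1760 and 939 in knockouts, with 2 to 4 of them at 0 fragments in each library. Of 4 tested, 0 passed, 3 had both knockouts above both controls (19.5% of all genes), and the median was 1.92. The other was Mmp9, with 59 and 0 fragments in controls, 10 and 1 in knockouts and a log2 fold change of -2.22. Without retained-intron entries the median of the 4 was 0.93, with 2 positive and 2 negative. The part of either list in the Ier3 difference was not tested. The 5′ exon of Ier3 (35821684 to 35821928) held 12.8% (exact 95% binomial interval 12.3 to 13.4) and 11.1% (10.5 to 11.7) of the fragments in controls. In knockouts it held 13.1% (12.6 to 13.5) and 11.0% (10.6 to 11.5). The split between its exons thus overlapped between genotypes. These intervals cover counting error only, and fragments that joined the 2 exons of Ier3 were not counted.

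Ier2 was at 1962 and 1317 CPM in controls and at 1382 and 2088 CPM in knockouts. The groups overlapped, with a library of each genotype in the higher pair and in the lower pair. The log2 fold change of 0.08 had a standard error of 0.52 (edgeR, adjusted p = 0.9997). Ier5, the other single-exon gene, was at 592.0 and 349.5 CPM in controls and at 390.1 and 539.5 CPM in knockouts. Its log2 fold change of -0.02 had a standard error of 0.56 (edgeR, adjusted p = 0.9997) and was the closest to 0 of the 7 tested genes.

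Ier2 and Ier5 kept nearly the same ratio in every library, although they lie on different chromosomes. All exonic bases of these 3 genes lay in a single entry, so levels are given per kb of exon. Fragments that joined the 2 exons of Ier3 were not counted, so its level and ratios are too low by an unmeasured amount. Ier2 was at 1287 and 864.5 CPM per kb in controls and 907.0 and 1370 in knockouts. Ier5 was at 180.7 and 106.7 CPM per kb in controls and 119.1 and 164.7 in knockouts. The ratio of Ier2 to Ier5 was 7.12 and 8.10 in controls and 7.62 and 8.32 in knockouts. The ratio of Ier3 to Ier5 varied more, at 14.9 and 24.4 in controls and 38.4 and 24.6 in knockouts. Ier3 over Ier2 was 2.10 and 3.01 in controls and 5.04 and 2.96 in knockouts, so the order Ier3, Ier2, Ier5 per kb was the same in each library. With 4 libraries no correlation is given.

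Egr1, the member of its family with most fragments, was lowest in control 2 and next lowest in knockout 1, as were Ier2 and Ier5. The controls had 83.2 and 11.4 CPM (381 and 43 fragments) and the knockouts 27.95 and 81.6 CPM (112 and 345 fragments). Control 1 and knockout 2 were high and the other libraries low, so the genotypes overlapped across a 7.33-fold range. The log2 fold change of 0.21 had a standard error of 1.28 (edgeR, adjusted p = 0.9997). It was -0.61 without control 2, -0.73 without knockout 2 and 2.33 without control 1, so its direction depends on single libraries. Of its 881 fragments, 880 lay in the exon entry 34859823 to 34861786. The countable part of that entry is the 5′ untranslated stretch that the other annotated transcript lacks.

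The high and low libraries for Egr1, Ier2 and Ier5 differed also in sex-linked transcripts. The Y-linked genes Ddx3y, Eif2s3y, Kdm5d and Uty summed to 76 and 1 fragments in controls and 0 and 118 in knockouts. Xist, which is transcribed from the inactive X chromosome, had 1858 and 8909 fragments in controls and 5442 and 20 in knockouts, so control 1 held both kinds. The part of this in the levels was not tested. With the presence of Y-linked transcripts as a covariate, chosen after seeing the data, the log2 fold change of genotype was 0.63 for Egr1, 0.08 for Ier2 and 0.01 for Ier5, none past the threshold.

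Egr2 and Egr3 were near the limit of detection. Egr2 had 30 and 6 fragments in controls (6.55 and 1.58 CPM) and 27 and 33 in knockouts (6.74 and 7.80 CPM). Both knockouts lay above both controls, but the lower knockout was only 1.03 times control 1, with fewer raw fragments than it. Its log2 fold change of 0.83 had a standard error of 1.75 (edgeR, adjusted p = 0.9997) and was 0.14 without control 2. Of its 96 fragments, 95 lay in the exon that begins at the start site printed above (67537869 to 67538389). Egr3 had 2 and 1 fragments in controls and 2 and 0 in knockouts, all in a retained-intron entry, and did not pass the filter on low counts. A count of 0 allows up to 0.709 CPM in knockout 2 (3 fragments), which is above the level in each of the other libraries.

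**Figure D2:**
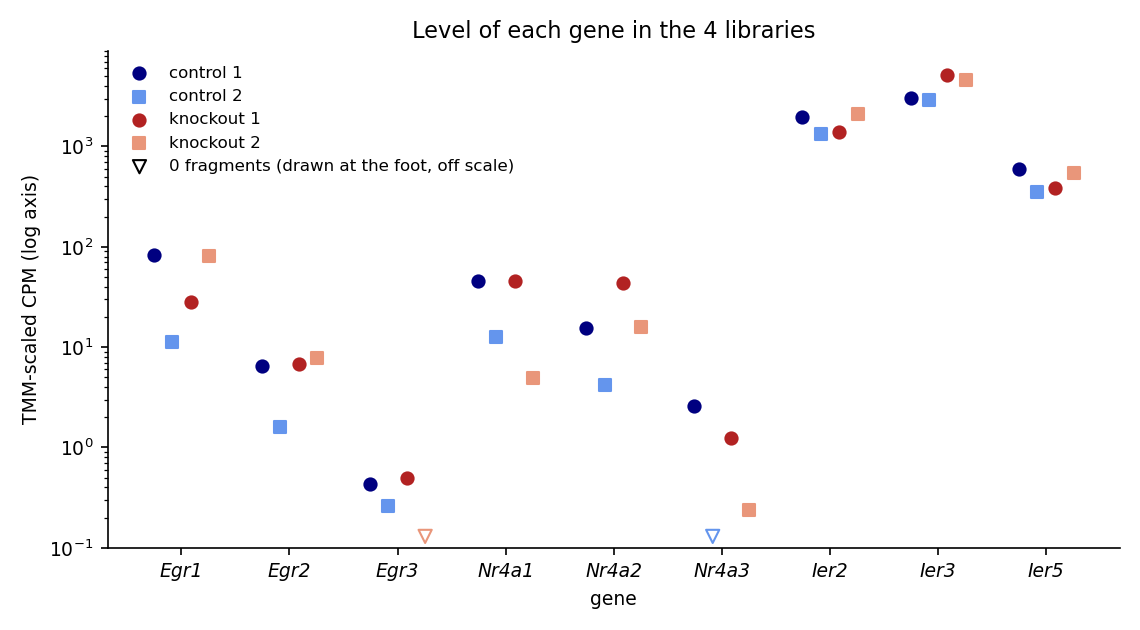
TMM-scaled CPM (log axis) of each gene in control 1 and 2 (blue) and knockout 1 and 2 (red), with 1 point per library and open triangles at the foot for 0 fragments. Only for Ier3, Egr2 and Nr4a2 do both knockouts lie above both controls, with Ier3 at 2939 and 3051 CPM in controls and 4588 and 5168 in knockouts.

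Nr4a1 (Nur77), widely used as a reporter of antigen receptor signalling, split within each genotype. The controls had 45.6 and 12.7 CPM (209 and 48 fragments) and the knockouts 45.7 and 4.96 CPM (183 and 21 fragments). Each genotype had a high and a low library, a 9.20-fold range in all. The log2 fold change of -0.20 had a standard error of 1.51 (edgeR, adjusted p = 0.9997). It was 1.07 without control 1, 0.69 without knockout 2 and -2.54 without knockout 1.

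The fragments of Nr4a1 came mostly from an intron. A retained-intron entry (101273015 to 101273847) held 183 and 48 fragments in controls and 135 and 3 in knockouts. These were 87.6% (exact 95% binomial interval 82.3 to 91.7) and 100% (92.6 to 100) of the gene's fragments in controls. In knockouts they were 73.8% (66.8 to 80.0) and 14.3% (3.05 to 36.3). Knockout 2 thus stood apart from the other libraries in where its fragments lay. Noncoding 5′ exons, called A and B here, held nearly all others. Exon A (101258308 to 101258426) had 19 and 0 fragments in controls and 13 and 7 in knockouts. Exon B (101268928 to 101269103), of another transcript, had 7 and 0 in controls and 34 and 11 in knockouts. Without retained-intron entries the log2 fold change turned from -0.20 to 1.55, with a standard error of 2.46 (edgeR, adjusted p = 0.9999), so the sign rests on which entries are summed.

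Nr4a2 (Nurr1) had 71 and 16 fragments in controls (15.5 and 4.22 CPM) and 175 and 67 in knockouts (43.7 and 15.8 CPM). Both knockouts lay above both controls, but knockout 2 and control 1 differed by a ratio of only 1.02. The log2 fold change of 1.59 was the highest among the 7 tested genes, with a standard error of 1.42 (edgeR, adjusted p = 0.9997). It lay between 0.69 and 2.88 with a library left out. All 329 fragments were in 2 exons of transcripts annotated as processed, without a coding frame. Exon C (57114275 to 57114373) had 47 and 16 fragments in controls and 91 and 43 in knockouts. Exon D (57112951 to 57113289) had 24 and 0 in controls and 84 and 24 in knockouts. Knockout 1 was highest in both exons. Nr4a3 (Nor1) had 12 and 0 fragments in controls (2.62 and 0 CPM) and 5 and 1 in knockouts (1.25 and 0.236 CPM), and was not tested. For control 2 a count of 0 allows up to 0.792 CPM.

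**Figure D3:**
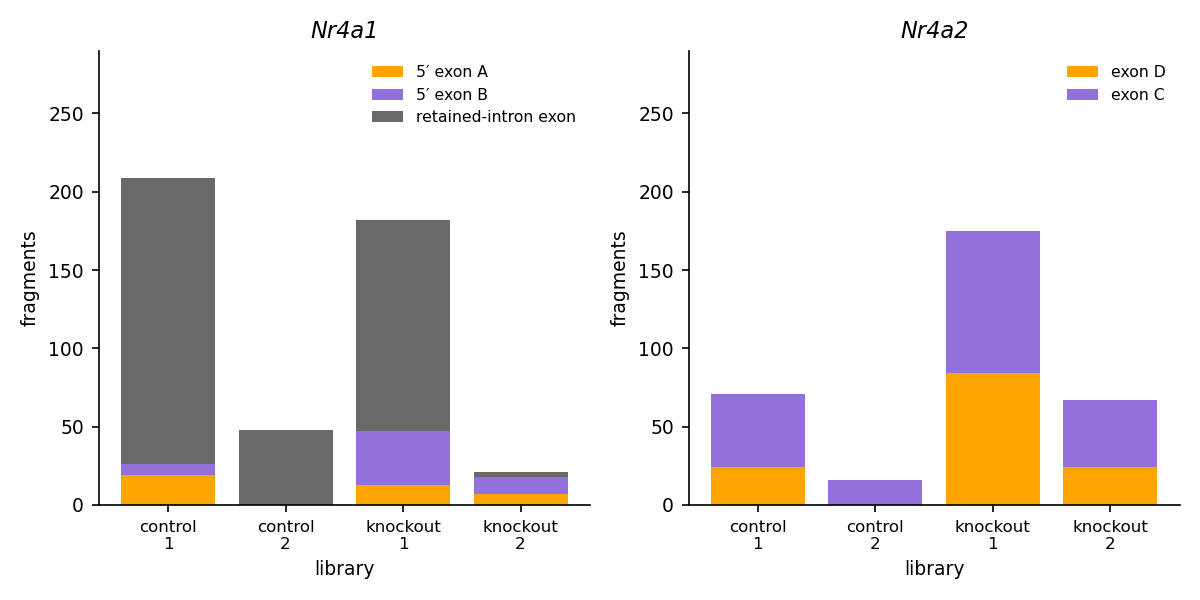
Fragments of Nr4a1 (left) and Nr4a2 (right) in each library, stacked by the exon entry that held them (A to D as in the text), where entries with 1 fragment are left out. The retained-intron entry of Nr4a1 had 183, 48 and 135 fragments in control 1, control 2 and knockout 1, and 3 in knockout 2.

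Of the 9 genes, 7 passed the filter on low counts (Egr3 and Nr4a3 did not), and none passed the threshold, as none of all 12434 genes tested did (0%). At an unadjusted p under 0.05, 0 of the 7 passed against 1.5% of all genes tested, and the lowest unadjusted p was 0.172, for Ier3 (edgeR). DESeq2 gave an adjusted p to 6 of the 9 (not to Egr2, Egr3 or Nr4a3) and called 0 of them, against 0.282% of all genes to which it gave one. Log2 fold changes were positive for 5 of the 7 genes (56.9% of all genes), with a median of 0.21 beside 0.20 over all genes tested. Both knockouts lay above both controls for 3 of the 7 (19.5% of all genes) and below for none (11.2%). For Egr2 and Nr4a2 the margin was 1.03 and 1.02 times, and for Ier3 it was 1.50 times. A pattern shared by 6 of the 7 genes was a lowest level in control 2 (Egr1, Egr2, Nr4a2, Ier2, Ier3 and Ier5), as in 56.5% of all genes tested.

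**Figure D4:**
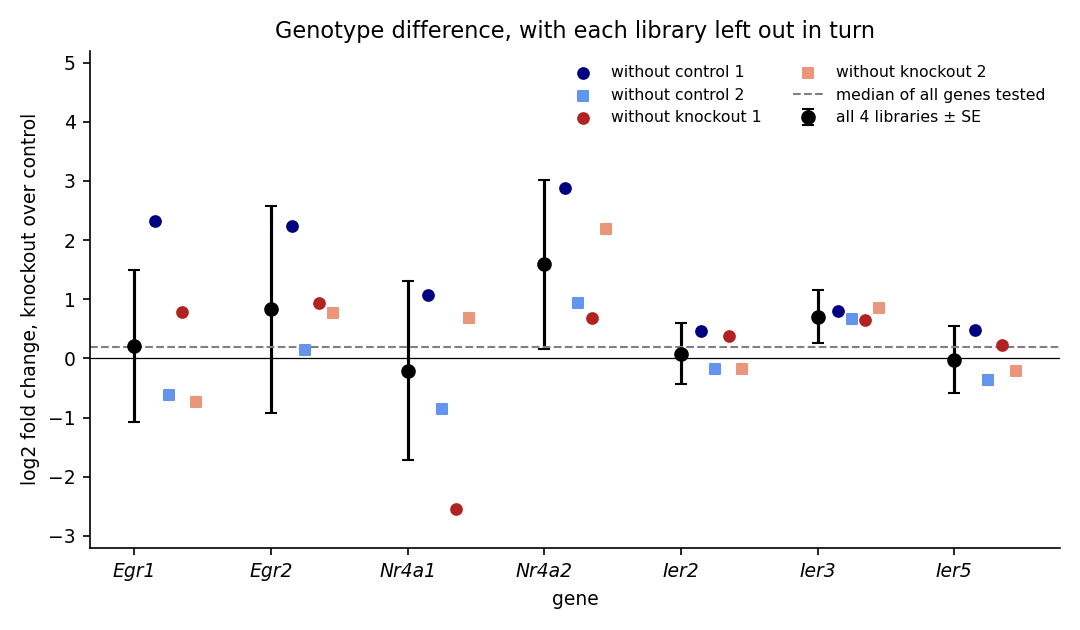
Log2 fold change, knockout over control, of the 7 tested genes with all 4 libraries (black, ± SE) and with each library left out in turn (coloured points). The dashed line is the median of all genes tested with all 4 libraries, at 0.20, which was 1.72 without control 1. The points of Ier3 lie between 0.66 and 0.86, whereas those of Egr1, Nr4a1, Ier2 and Ier5 lie on both sides of 0.

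Genes that act upstream of these factors did not differ detectably either. Of 19 upstream regulators (serum response factor and its partners, CREB, MEF2 and NFAT factors and MAP kinases), 17 were tested and 0 passed the threshold (0%). The log2 fold change was positive for 10 of the 17 (58.8%, against 56.9% of all genes) and negative for 7. The median was 0.33 beside 0.20 over all genes tested. The median was -0.04 without control 2 (0.05 over all genes), with 8 positive and 9 negative. It was 1.00 without control 1 (1.72 over all genes). Map2k1, the kinase MEK1, was at 185.3 and 228.3 CPM in controls and 407.1 and 253 in knockouts (log2 fold change 0.67, standard error 0.58). It did not pass the threshold (edgeR, adjusted p = 0.9997). Srf itself had 105 and 0 fragments in controls and 79 and 178 in knockouts, and control 2 had 0 fragments for 7 of the 19 genes, against 1 to 2 in the other libraries.

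Among cofactors and partners, the EGR corepressors Nab1 and Nab2 had too few fragments to test. Nab2, which EGR proteins themselves induce, had 28 and 0 in controls and 6 and 7 in knockouts. Nab1 had 4 in control 1 and 0 in the others. Rxra, a nuclear receptor with which Nr4a1 and Nr4a2 proteins can pair, was at 112.4 and 21.1 CPM in controls and 49.4 and 202.4 in knockouts (log2 fold change 0.91, standard error 1.16). Rxrb was at 7.86 and 2.90 CPM in controls and 7.99 and 12.1 in knockouts (0.89, standard error 1.63), with 100% of its fragments in retained-intron entries. Of the 5 genes listed, these 2 were tested and 0 passed (edgeR, adjusted p = 0.9997). Wt1 had no fragment.

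Other immediate early genes ranged widely in counted fragments, and all 41 listed had a fragment in at least 1 library. Their bases in a single entry ranged from 5 to 7644, and for some most fragments lay in retained-intron entries. Their levels are therefore not compared between genes. Control 2 had 0 fragments for 9 of the 41 listed genes, against 1 to 2 in the other libraries, Pim1 (534 and 0 fragments in controls, 940 and 404 in knockouts) and Myc (36 and 0, then 35 and 10) among the 9. Of the 41 genes 37 were tested, and 0 passed the threshold (0%). The log2 fold change was positive for 29 of the 37 (78.4%, against 56.9% of all genes) and negative for 8. The median was 0.48 beside 0.20 over all genes tested. Both knockouts lay above both controls for 9 of the 37 (24.3%, against 19.5% of all genes) and below for 0 (0%, against 11.2%). Fos, a subunit of the AP-1 factor, was at 4885 and 3412 CPM in controls and 5493 and 4686 in knockouts (log2 fold change 0.29, standard error 0.47). Junb, another subunit, was at 5319 and 1444 CPM in controls and 5381 and 5285 in knockouts (0.66, standard error 0.71), with control 2 low and the other 3 libraries alike. Of the 37 genes, 26 were lowest in control 2 (70.3%, against 56.5% of all genes). The list's summed level was 37707 and 23746 CPM in controls and 45709 and 39019 in knockouts. The median of the list was 0.20 without control 2 (0.05 over all genes), 0.24 without knockout 1 and 0.96 without control 1, where it lay below the 1.72 of all genes.

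**Figure D5:**
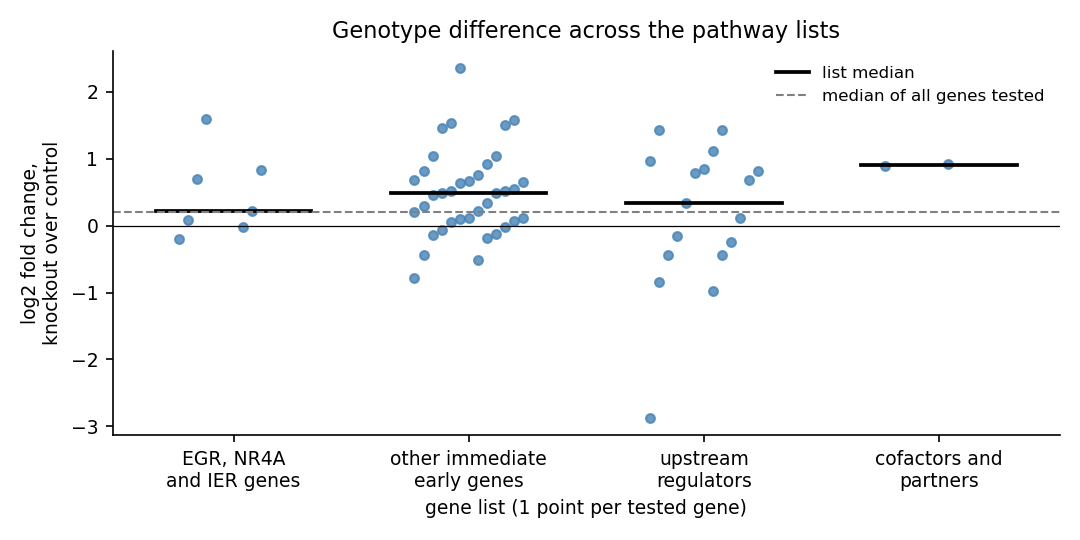
Log2 fold change, knockout over control, of each tested gene (points) in the EGR, NR4A and IER genes and in 3 lists of their pathway, with list medians (bars) of 0.21, 0.48, 0.33 and 0.90 and the median of all genes tested (dashed) at 0.20. No point passed the test.

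Likeness of pattern was measured as the root mean square difference of centred log2(CPM + 1) over the 4 libraries, among genes of all lists here with a mean of at least 20 CPM. Against the average of the 6 genes with at least 10 fragments in every library, the closest of 78 were Fosl2 (0.077), Rps6ka3 (0.079), Dusp1 (0.179), Jun (0.201) and Gem (0.242). Fosl2 and Jun are AP-1 subunits and Dusp1 is a phosphatase of MAP kinases, with 99.6% of its fragments in retained-intron entries. The average pattern was 0.44 from its mean on the log2 scale in control 1, 0.36 in knockout 1, 0.03 in knockout 2 and -0.83 in control 2. In knockout 1 only 3 of the 6 genes (Nr4a1, Nr4a2 and Ier3) lay above their own mean, so the average does not describe each gene, whereas in control 2 all 6 lay below it. For Egr1 the closest of 82 were Mmp2, a fibroblast marker (0.203), Rxra (0.309) and Elk4 (0.491). The fibroblast markers did not share 1 pattern. Col1a2, Dcn and Lum were, like Mmp2 and Egr1, higher in knockout 2 than in knockout 1, whereas Col1a1 and Col3a1 were lower. For Nr4a1 they were Ccr2, a monocyte marker (0.714), Col1a1, a fibroblast marker (0.820), and Sgk1 (1.02), so no listed gene lay close to it. With 4 libraries and many genes such ranks are a description only.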

How the data were processed

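Raw counts of fragments per exon entry were deposited by the authors for 4 libraries. Counting was done on GRCm38 alignments with featureCounts 2.0.1 and GENCODE M23, for fully mapped pairs and without strand, per the file headers. The submitters' processing notes name Trim Galore 0.6.7 and STAR 2.7.9a. Fragments that overlapped more than 1 entry were not counted, and 545076 of 841606 entries share their coordinates with another. Entries were summed per gene (55154 of 55335 identifiers had a symbol), and transcript types came from GENCODE M21, which holds 99.7% of the entries. Without strand, antisense RNA cannot be told apart from that of a gene.

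The code was first run on simulated counts. Their spread was set and not taken from these libraries, so that run does not check the test on data like these. Knockout and control were compared with edgeR 4.0.16 (R 4.3.3), TMM factors and a filterByExpr minimum of 10 counts. The two-sided quasi-likelihood test was used, with Benjamini-Hochberg adjustment over 12434 genes at 0.05. Alternatives were RLE and upper-quartile factors, DESeq2 1.42.0, limma-voom (limma 3.58.1), no filter, no retained-intron entries, leaving out each library and, added later, a Y-linked covariate. Replicate numbers only name libraries. A library left alone in its group is assumed to vary like the other group. The members and lists were chosen with earlier results of these data known. By rule, all 9 genes, the 2 most abundant genes of each pathway list, Nab1, Nab2 and the nearest genes in pattern were named. One gene that this rule names is not reported here. Srf, Wt1, Pim1, Myc and the cell type and sex-linked genes were named after their values were seen.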

Additional observations from a re-analysis of the deposited data

How the results depend on the processing

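Of the 6 to 9 members that had an adjusted p in each of the 11 alternatives, none was called, and Ier3, Egr2 and Nr4a2 had a positive log2 fold change in all 11 (0.66 to 0.86, 0.14 to 2.24 and 0.69 to 2.88). Over all genes, DESeq2 called 25 and edgeR without a filter 27, and leaving out a library called 0 to 4. The members' median log2 fold change lay between -0.19 (without control 2) and 1.07 (without control 1), and the median of all genes was then 0.05 and 1.72. Ier5 turned from -0.02 to 0.036 with upper-quartile factors, 0.0027 with limma-voom, 0.073 without a filter, 0.052 without retained-intron entries and 0.012 with the Y-linked covariate. Nr4a1 turned to 1.55 without retained-intron entries, where fewer exons are summed. With a library left out, Egr1 lay between -0.73 and 2.33, Nr4a1 between -2.54 and 1.07, Ier2 between -0.19 and 0.46 and Ier5 between -0.36 and 0.48. The cause of the other changes was not tested. Egr3 and Nr4a3 had 5 and 18 fragments over the 4 libraries. Depth and the small countable part of these genes cannot be told apart as limits. No paired analysis was possible because the numbers in the library titles differ between all 4 libraries and no label says which, if any, share a day or batch.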
